A study of Homo sapiens with 6 samples.

Results

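Intermediate filament RNA of HEK293 cells was examined for 10 genes: the keratin genes KRT8, KRT18, KRT19, KRT7 and KRT10, the vimentin gene VIM, and the neuronal or neural progenitor filament genes NEFL, NEFM, INA and NES. They are 10 of the 57123 genes in the count tables, and all 10 were among the 25125 genes with enough counts to be tested. The genes were chosen by their CPM (counts scaled to library size) in these same libraries, WT against MUL1(-/-), as well as by their class, so the differences between genotypes given for them are a description, with no p-value. The study compared HEK293 wild type (WT) cells with HEK293 MUL1(-/-) cells, in which the gene of the mitochondrial E3 ubiquitin ligase MUL1 was inactivated with CRISPR-Cas9. HEK293 is a line from human embryonic kidney, and both genotypes were grown without further treatment in DMEM with 10% fetal calf serum, glutamine, penicillin and streptomycin. RNA was sequenced from 3 samples per genotype. The sources used here do not say which clone or clones were sequenced, so a difference between genotypes cannot be told apart from a difference between clones, nor do they say of the RNA samples in particular that they were separate cultures, though the study's methods speak generally of independent experiments, so the errors and p-values measure the spread between these samples, which may be technical.

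Intermediate filaments are cytoplasmic cables of coiled-coil proteins that give cells mechanical strength. Keratins form them only in pairs of a type I and a type II protein, and KRT8 (type II) with KRT18 (type I) is the pair of simple epithelia such as kidney tubules, in which KRT19 (type I) and KRT7 (type II) are further members. KRT10 is a type I keratin best known from the differentiated layers of the epidermis, vimentin is the filament protein of mesenchymal cells and of most cultured lines, nestin marks neural progenitors, and NEFL, NEFM and internexin alpha (INA) build the filaments of neurons.

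The 10 proteins belong to 1 family, and a codon pattern can be written for the end of their shared rod domain. The pattern TANNGNNNNNTNNTNGA, searched in frame on the coding strand, where N is any base, was found exactly once in the principal coding sequence of each of the 10 genes. Among 11467 coding sequences of 900 to 3000 bases in the GENCODE 29 annotation, 342 (2.982%) held it in frame. The pattern was loosened until it covered the members, so its presence in all of them is a description. The bases it fixes are among the capitals below by construction. NEFL and NEFM are not printed. Below are the 24 coding bases from the start of the pattern in 8 of the genes, read 5′ to 3′ from GENCODE 29 transcripts on GRCh38, with the 11 bases that these 8 share in capitals.
KRT8, chr12:52898687-52898710, minus strand: TACaGgaagCTgCTgGAgGgcgag
KRT7, chr12:52245601-52245624, plus strand: TACcGcaagCTgCTgGAgGgcgag
KRT18, chr12:52952308-52952331, plus strand: TACcGccgcCTgCTgGAaGatggc
KRT19, chr17:41523785-41523808, minus strand: TACcGcagcCTgCTcGAgGgacag
KRT10, chr17:40819522-40819545, minus strand: TACcGcagcCTgCTaGAaGgagag
VIM, chr10:17235358-17235381, plus strand: TACaGgaagCTgCTgGAaGgcgag
INA, chr10:103287155-103288378, plus strand, spanning an intron: TACaGgaaaCTgCTgGAaGgcgag
NES, chr1:156673509-156675220, minus strand, spanning an intron: TACaGgaccCTcCTgGAgGctgag
What follows the rod differs far more between the genes: 12 codons remain after these 24 bases in KRT19, which has almost no tail, 42 in KRT18, 84 in KRT8, 58 in VIM, 507 in NEFM and 1311 in NES.

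The 6 libraries held 127015142 to 142803296 gene counts in WT and 121917971 to 122441959 in the MUL1(-/-)-labelled group. Levels are given as CPM after TMM scaling, and 3 counts, taken as the floor, correspond to 0.0210 to 0.0246 CPM before that scaling. Intervals and floors of this kind cover counting error only, and a read that spans 3 bins can reach the floor alone. MUL1 itself had 15.4, 15.2 and 19.0 CPM in WT and 18.7, 16.6 and 19.2 CPM in the MUL1(-/-)-labelled libraries (log2 fold change 0.14 ± 0.10, SE, with an adjusted p of 0.321 in edgeR's quasi-likelihood test), so its RNA does not check the labels, and the second group is called by its label throughout. Of the kidney markers examined, UMOD, AQP2, SLC22A6 and CDH16 were at means of at most 0.0345 CPM in either genotype, and PODXL and LRP2 were at means of 39.1 and 37.5 CPM in the MUL1(-/-)-labelled libraries and of 52.5 and 35.9 CPM in WT.

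**Figure D1:**
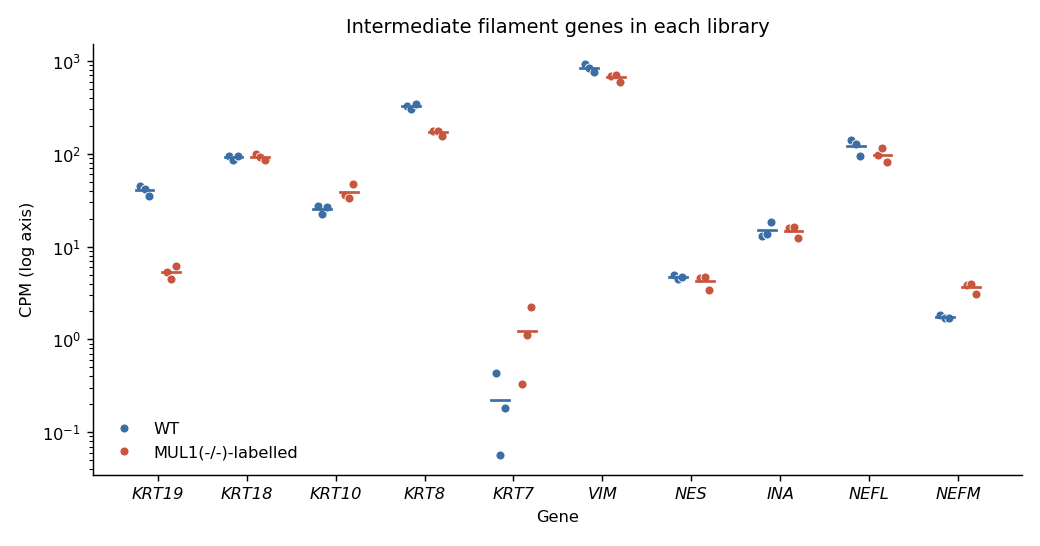
Level of the 10 intermediate filament genes in each library, in CPM on a log axis, with WT in blue, the MUL1(-/-)-labelled group in red and bars at the means. KRT19 stood at 34.9 to 44.8 CPM in WT and at 4.51 to 6.24 CPM in the MUL1(-/-)-labelled libraries, whereas the values of KRT18 overlapped.

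KRT19 showed the widest gap among the epithelial keratins. KRT19 (ENSG00000171345, chromosome 17 from 41523617 to 41528308, minus strand) is a small type I keratin of simple and ductal epithelia. Its level was 44.8, 41.5 and 34.9 CPM in the WT libraries and 5.30, 4.51 and 6.24 CPM in the MUL1(-/-)-labelled libraries. The lowest WT library was several fold above the highest MUL1(-/-)-labelled one. The means were 40.4 ± 5.03 and 5.35 ± 0.863 CPM (SD, n = 3), 7.55-fold lower in the MUL1(-/-)-labelled group (log2 fold change −2.92 ± 0.12, SE). The gap ran along the whole gene: in each of the 16 exon bins with at least 200 counts that no other gene overlapped, the log2 ratio was negative, between −3.26 and −2.63. The 20 nearest tested genes on the chromosome had a median log2 fold change of 0.10. In all, 5 annotated pseudogenes of KRT19 together had 0.334% to 2.30% of its count, and 1.79% of the 50-base windows of its transcript also occur in a transcript of another gene.

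KRT18, the type I partner of the simple epithelial pair, was at the same level in both groups within the spread of the libraries. KRT18 (ENSG00000111057, chromosome 12 from 52948871 to 52952901, plus strand) was at 93.7, 86.3 and 95.1 CPM in WT and at 98.2, 93.1 and 85.1 CPM in the MUL1(-/-)-labelled libraries. The groups overlapped over most of their ranges (log2 fold change 0.01 ± 0.07, SE). Its 17 well counted unshared bins had log2 ratios between −0.21 and 0.13.

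KRT8, the type II partner, was lower in the MUL1(-/-)-labelled libraries. KRT8 (ENSG00000170421, chromosome 12 from 52897187 to 52949954, minus strand) was at 328, 304 and 340 CPM in WT and at 177, 176 and 156 CPM in the MUL1(-/-)-labelled libraries. The groups were well apart, with means of 324 ± 18.7 and 170 ± 12 CPM (SD, n = 3; log2 fold change −0.93 ± 0.07, SE). This sum mixes reads of a pair of genes, since the annotated 5′ end of KRT8 runs across KRT18 on the opposite strand and the counts did not separate the strands. Of the 1562 bases of the principal KRT18 transcript, 375 lie under bins of KRT8. A read from the overlap was counted for both genes.

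The bins of KRT8 fell into 2 parts with different values. The 16 bins over and beside KRT18 had 45.0, 40.7 and 46.1 CPM in WT and 46.9, 45.2 and 41.8 CPM in the MUL1(-/-)-labelled libraries, the same pattern as KRT18 itself. They made up 13.4% to 13.7% of the KRT8 count in WT and 25.6% to 26.9% in the MUL1(-/-)-labelled libraries. The other 32 bins had 283, 263 and 294 CPM in WT against 130, 131 and 114 CPM, a ratio of 2.24 (log2 −1.16). With bins that no other gene's exon overlaps, the fitted log2 fold change of KRT8 was −1.13, against −0.93 with all bins, which puts it on the other side of a log2 fold change of 1 in size. Pseudogenes share much sequence with this pair, so part of the pair's reads may be counted elsewhere: 36.9% of the 50-base windows of KRT8 and 31.8% of those of KRT18 occur in pseudogene transcripts. The 67 annotated pseudogenes of KRT18 had 2.37% to 3.56% of its count. The 51 of KRT8 had 1.42%, 1.74% and 1.61% of its count in WT and 3.92%, 3.42% and 3.52% in the MUL1(-/-)-labelled libraries. Their own counts were 593, 746 and 692 in WT and 877, 755 and 680 in the MUL1(-/-)-labelled libraries.

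Relative to KRT18, KRT8 was lower in each MUL1(-/-)-labelled library than in any WT library. With coding exon bins of at least 30 bases that no other gene overlaps, KRT8 over KRT18 per kilobase was 2.51, 2.56 and 2.66 in WT and 1.11, 1.20 and 1.11 in the MUL1(-/-)-labelled libraries (2.58 ± 0.074 and 1.14 ± 0.047, SD, n = 3). KRT18 over KRT19, both type I, was 1.96, 1.96 and 2.54 in WT and 17.2, 19.8 and 12.8 in the MUL1(-/-)-labelled libraries. Ratios within a library do not depend on its scaling, but they show only that the genes differed unequally. With bins of at least 100 bases, whether coding or not, KRT8 over KRT18 was 1.14 ± 0.012 in WT and 0.608 ± 0.021 in the MUL1(-/-)-labelled libraries, so the size of the ratio depended on the bins and the gap between groups was present in both sets.

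**Figure D2:**
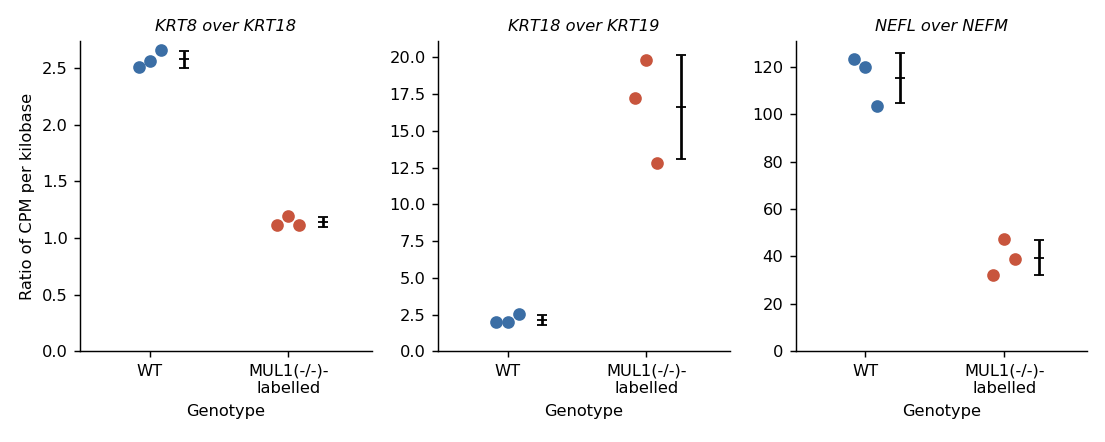
Ratios of CPM per kilobase within each library (points) with mean and SD at the side, from unshared coding exon bins, for KRT8 over KRT18, KRT18 over KRT19 and NEFL over NEFM. The 3 libraries of each genotype lie apart in every panel, for example 2.51 to 2.66 against 1.11 to 1.20 for KRT8 over KRT18.

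KRT10 was higher in the MUL1(-/-)-labelled libraries, but its counts came from 1 end of the gene. KRT10 (ENSG00000186395, chromosome 17 from 40818117 to 40822595, minus strand) was at 27.2, 22.4 and 26.5 CPM in WT and at 35.9, 33.4 and 47.8 CPM in the MUL1(-/-)-labelled libraries. The groups did not overlap (log2 fold change 0.62 ± 0.12, SE), and the third MUL1(-/-)-labelled library was the highest. The 4 bins of its last 2 exons held 99.1% to 99.7% of the counts, and the other 6 bins together had 11 to 36 counts per library. The codons of the rod end printed above lie in those thinly counted exons, so the value describes the 3′ end of the locus rather than a full KRT10 transcript. An antisense gene, KRT10-AS1, overlaps there and was at 10.6, 10.5 and 11.5 CPM in WT and 10.9, 9.23 and 13.3 CPM in the MUL1(-/-)-labelled libraries (log2 fold change 0.04). Only 11.8% of the KRT10 counts lay in bins that overlap another gene.

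KRT7, a type II keratin of ducts and glands, was near the limit of these libraries. KRT7 (ENSG00000135480, chromosome 12 from 52232520 to 52252186, plus strand) had 55, 8 and 23 counts in WT and 42, 139 and 277 in the MUL1(-/-)-labelled libraries, which is 0.433, 0.0565 and 0.183 against 0.332, 1.11 and 2.23 CPM. These counts are sums over bins, and a read that spans several bins adds to each, so they can come from fewer reads. The groups overlapped, since the first MUL1(-/-)-labelled library was below the first WT library. The fitted log2 fold change of 2.47 ± 0.59 (SE) became 1.70 without the third MUL1(-/-)-labelled library and 3.38 without the first WT library.

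VIM, the mesenchymal filament gene, was the most abundant of the 10 in every library. VIM (ENSG00000026025, chromosome 10 from 17228259 to 17237593, plus strand) was at 937, 835 and 752 CPM in WT and at 694, 706 and 594 CPM in the MUL1(-/-)-labelled libraries. The lowest WT library was above the highest MUL1(-/-)-labelled one by a narrow margin compared with the spread within WT (841 ± 93.1 and 665 ± 61.7 CPM, SD, n = 3; log2 fold change −0.34 ± 0.09, SE). Bins that another gene overlaps held 53.8% of the VIM counts, and without strand the reads there cannot be assigned to 1 gene. These bins lay between 17229291 and 17235034. The antisense gene VIM-AS1 ends at 17229985, so its span takes in shared bins 7 to 10, numbered from the 5′ end. The shared bins from bin 16 on lie beyond it. Of the 50-base windows of the VIM transcript, 32.5% also occur in VIM-AS1 transcripts. In the bins that no other gene overlaps the log2 fold change was −0.36. VIM over KRT8 per kilobase of unshared coding exon bins was 4.08, 3.91 and 3.15 in WT and 6.50, 6.50 and 6.36 in the MUL1(-/-)-labelled libraries.

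Of the neural genes, NEFM was apart between the groups, and NEFL, INA and NES overlapped. NEFL (ENSG00000277586), the core subunit of neurofilaments, was at 139, 128 and 94.9 CPM in WT and at 97.1, 114 and 81.7 CPM in the MUL1(-/-)-labelled libraries, and the groups overlapped (log2 fold change −0.30 ± 0.13, SE). Of its 9 well counted unshared bins, 8 had negative log2 ratios, down to −0.40, and the last, at the 3′ end, had 0.09. NEFM (ENSG00000104722), the medium subunit, which assembles with NEFL, was at 1.84, 1.69 and 1.70 CPM in WT and at 3.84, 3.95 and 3.12 CPM in the MUL1(-/-)-labelled libraries, with no overlap (log2 fold change 1.06 ± 0.13, SE). Both genes lie on chromosome 8. The 20 nearest tested genes had a median log2 fold change of 0.48 around NEFM and 0.55 around NEFL, against −0.01 over all tested genes. Whether the differences of NEFM and NEFL are tied to their surroundings was not tested. An antisense gene overlaps bins with 29.4% of the NEFM counts, and in the other bins NEFM was at 1.25, 1.13 and 1.04 against 3.02, 2.80 and 2.16 CPM (fitted log2 fold change 1.23). With unshared coding exon bins, NEFL over NEFM per kilobase was 123, 120 and 103 in WT and 32.2, 47.2 and 39.1 in the MUL1(-/-)-labelled libraries. With bins of at least 100 bases it was 71.8, 72.9 and 51.9 against 22.6, 27.1 and 24.8, so the size depended on the bins, and with either set NEFL was far more abundant than its partner in all 6.

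INA and NES overlapped between the groups. INA (ENSG00000148798, chromosome 10 from 103277163 to 103290351, plus strand), which joins neurofilaments in the central nervous system, was at 13.0, 13.7 and 18.4 CPM in WT and at 15.9, 16.1 and 12.5 CPM in the MUL1(-/-)-labelled libraries (log2 fold change −0.02 ± 0.13, SE). NES (ENSG00000132688, chromosome 1 from 156668763 to 156677397, minus strand), the filament gene of neural progenitors, was at 4.96, 4.45 and 4.67 CPM in WT and at 4.60, 4.72 and 3.39 CPM in the MUL1(-/-)-labelled libraries (log2 fold change −0.15 ± 0.13, SE). For both genes the difference between groups was about its standard error or less, and none of their counts lay in a bin that another gene overlaps.

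**Figure D3:**
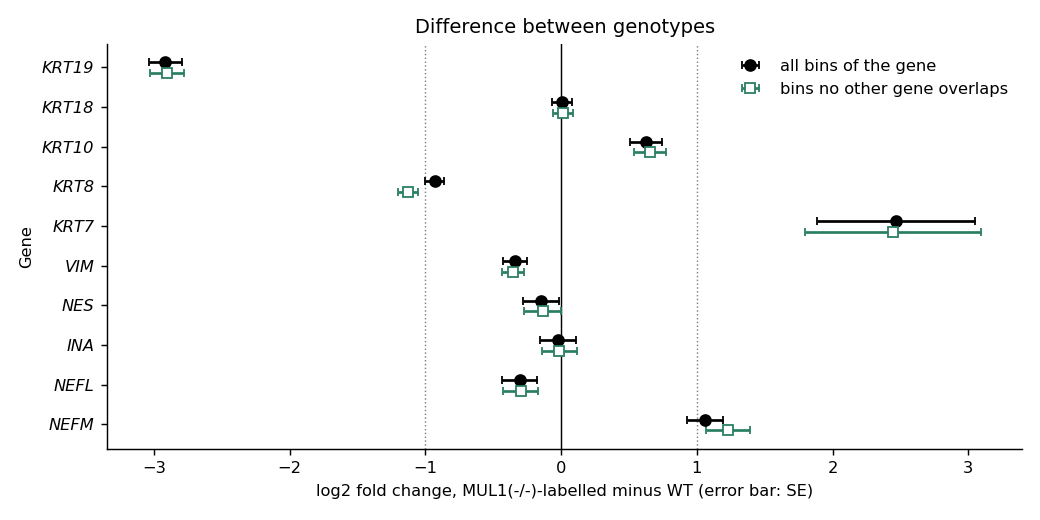
Log2 fold change of the 10 genes, MUL1(-/-)-labelled minus WT, with its standard error, from all bins (black) and from bins that no other gene overlaps (green), with dotted lines at 1 and −1. KRT8 moved from −0.93 to −1.13 and NEFM from 1.06 to 1.23 between the bin sets, and KRT7 had the widest error (0.59).

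A gene was called where edgeR's quasi-likelihood fit gave both an adjusted p below 0.05 and a log2 fold change larger than 1 in size, the thresholds of the study's methods. Of the 10 genes, 3 were past both (KRT7 and NEFM higher, KRT19 lower), against 8.11% of all tested genes. The background was 4.23% for higher and 3.87% for lower genes. With unshared bins 4 genes were past both, KRT8 being the fourth, against a background of 8.32%. With the most counted bin of each gene, 9 of the 10 were tested, KRT7 being left out. Past both were 3 (KRT19, KRT8 and NEFM), against 7.36%. WT and MUL1(-/-)-labelled values were fully apart for 5 of the 10 (KRT19, KRT8, KRT10, VIM and NEFM), against 48.5% of all tested genes, and 6 of the 10 were past the adjusted p alone, against 37.5%. Because this contrast was in view when the list was made, nothing is read from these shares. The median log2 fold change was −0.09 over the 10 genes and −0.01 over all tested genes.

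Per kilobase of bins, the order of levels in WT was VIM (163 ± 18.1 CPM per kilobase, SD, n = 3), KRT8 (47.1 ± 2.71), KRT18 (28.5 ± 1.47), NEFL (27.9 ± 5.31), KRT19 (17.3 ± 2.16), KRT10 (11.8 ± 1.21), INA (4.66 ± 0.909), NES (0.844 ± 0.046), NEFM (0.398 ± 0.019) and KRT7 (0.055 ± 0.047). Of these neighbours, KRT18 and NEFL overlapped in their ranges over the 3 libraries and the others did not. A read that spans several bins adds to each of them. A gene cut into many short bins, as KRT8 with 48 bins, can therefore be counted more often per read than INA with 3. This order held only in part with other bins: with bins of at least 100 bases NEFL (22.99 ± 4.31) stood above KRT8 (22.3 ± 1.23) and KRT18 (19.6 ± 0.914), and KRT10 (12.3 ± 1.23) above KRT19 (11.9 ± 1.5). In that set the range of NEFL overlapped those of KRT8 and KRT18, and KRT10 overlapped KRT19, so their order was not resolved. With unshared coding exon bins KRT8 was at 173 ± 10.8, and INA (11.9 ± 2.77) and KRT10 (11.8 ± 1.17) had similar values. The INA value rested on 1 bin of 125 bases. The KRT10 value averaged 6 bins, most of them in its thinly counted exons, so these values are not comparable. VIM was first and NES, NEFM and KRT7 were last with all 3 sets. In the MUL1(-/-)-labelled libraries KRT19 stood at 2.29 ± 0.369 CPM per kilobase, below KRT10 (18.2 ± 3.59) and INA (4.58 ± 0.631), and KRT8 (24.7 ± 1.75) stood below KRT18 (28.6 ± 2.05). NEFM (0.830 ± 0.102) and NES (0.762 ± 0.133) overlapped there, as did KRT8 with NEFL (22.6 ± 3.76) and NEFL with KRT10. The order of KRT8 and KRT18 in that group depended on the bins as well. With unshared coding exon bins KRT8 was at 76.9 ± 6.81 and KRT18 at 67.4 ± 5.0 CPM per kilobase. Their ranges overlapped there, but within each of these libraries KRT8 stood above KRT18 (ratios of 1.11, 1.20 and 1.11). In bulk RNA, fewer cells with a transcript and less of it per cell cannot be told apart.

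The genes whose pattern over the 6 libraries was nearest to that of KRT19 were MIDN, PLXDC2 and IFITM2. The measure was the Euclidean distance of log2 CPM centred on each gene's mean, over 12995 protein-coding genes averaging 1 CPM or more, and it was 0.372, 0.446 and 0.470. MIDN averaged 192 ± 19.9 CPM in WT and 31.0 ± 5.46 CPM in the MUL1(-/-)-labelled libraries (SD, n = 3), PLXDC2 2.35 ± 0.473 and 0.261 ± 0.003 CPM, and IFITM2 14.6 ± 1.27 and 2.37 ± 0.424 CPM. These genes were picked for this likeness, so no test is given.

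Few of the other intermediate filament genes had enough counts to be tested, 14 of 61 listed, and 27 were at or under 3 counts in all 6 libraries, including 9 with no count at all. By edgeR's quasi-likelihood test BFSP1 rose and PRPH fell past both thresholds, 2 of 14 (14.3%, against 8.11% of all tested genes). The other 12 did not pass. This list and those below were chosen with earlier results of these data known, so nothing is read from their shares. BFSP1, the filensin gene of the lens, went from 1.91 ± 0.263 CPM in WT to 4.19 ± 0.402 CPM (SD, n = 3; log2 fold change 1.13, adjusted p = 1.38e-05). PRPH, peripherin of peripheral neurons, went from 9.75 ± 1.22 to 4.45 ± 0.780 CPM (log2 fold change −1.13, adjusted p = 1.3e-05), but exons of another gene overlap bins with 81.9% of its counts, and without the third MUL1(-/-)-labelled library its log2 fold change was −0.99 and 1 gene of the list was past both thresholds. The nuclear lamins stayed under a log2 fold change of 1 in size: LMNB2 was at 176 ± 3.59 and 288 ± 10.9 CPM (0.71, adjusted p = 7.77e-07), LMNA at 124 ± 4.07 and 150 ± 5.73 CPM (0.28, adjusted p = 0.00326) and LMNB1 at 245 ± 9.76 and 226 ± 11.8 CPM (−0.11, adjusted p = 0.197). SYNM and SYNC, which link filaments in muscle, had log2 fold changes of 0.16 (adjusted p = 0.257) and −0.48 (adjusted p = 0.00122). Another gene overlaps bins with 97.6% of the SYNC counts, and without those bins its adjusted p was 0.127. The list's median log2 fold change was 0.16.

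The median log2 fold change of 30 tested filament linkers and chaperones, such as plectin and the desmosomal plakins, was 0.05. Of these genes, 1 rose past both thresholds (3.33%, against 8.11% of all tested genes). That gene was BAG3, a co-chaperone of HSP70 proteins, at 26.5 ± 2.04 CPM in WT and 55.3 ± 7.22 CPM in the MUL1(-/-)-labelled libraries (SD, n = 3; log2 fold change 1.06, edgeR's adjusted p = 9.11e-07).

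Epithelial genes moved both ways. The 38 tested epithelial junction genes and regulators had a median log2 fold change of 0.04. Of them, 6 rose and 4 fell past both thresholds (26.3%, against 8.11% of all tested genes). Of these 10, 5 averaged under 1 CPM. Among those averaging 1 CPM or more, CDH3, the P-cadherin gene, was at 15.9, 13.5 and 12.1 CPM in WT and at 0.743, 0.887 and 0.968 CPM in the MUL1(-/-)-labelled libraries (log2 fold change −4.00 ± 0.14, SE; edgeR's adjusted p = 2.67e-11). SPINT2, a Kunitz inhibitor of membrane serine proteases, went from 139 ± 9.39 to 23.6 ± 2.79 CPM (SD, n = 3; log2 fold change −2.56, adjusted p = 2.53e-11). Its relative SPINT1 went the other way, from 7.26 ± 0.231 to 15.9 ± 0.568 CPM (log2 fold change 1.13, adjusted p = 2.23e-07). TJP3, a tight junction scaffold, rose from 1.26 ± 0.345 to 3.65 ± 0.679 CPM (log2 fold change 1.53, adjusted p = 2.06e-05), and MAL2, of apical transport, rose by 2.23 on the log2 scale (adjusted p = 1.94e-10). The 4 genes that fell thus included the cadherin and the protease inhibitor with the largest changes of the list, while KRT18 overlapped between the groups.

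Of 28 tested mesenchymal genes, the company of VIM, 1 was higher and 4 were lower past both thresholds (17.9%, against 8.11% of all tested genes). The list's median log2 fold change was 0.08, and by edgeR's adjusted p alone 10 of its genes were higher and 6 lower. PRRX1, a homeobox factor of mesenchyme, was at 9.02, 8.93 and 8.91 CPM in WT and at 1.52, 1.84 and 1.70 CPM in the MUL1(-/-)-labelled libraries (log2 fold change −2.41 ± 0.12, SE; edgeR's adjusted p = 9.26e-10). SPARC, a matrix glycoprotein, went from 3.95 ± 0.331 to 1.30 ± 0.127 CPM (SD, n = 3; log2 fold change −1.61, adjusted p = 4.54e-07). The other 3 genes past both thresholds were under 1 CPM. They included the gene that rose, which was not past both with DESeq2, with the replicate number as a block, with the minimum of 1 CPM, with the most counted bin, or without the first WT, the first MUL1(-/-)-labelled or the second MUL1(-/-)-labelled library. The count was 3 without the second MUL1(-/-)-labelled library. LUM, COL3A1 and DCN, matrix genes that were higher, are given below with the markers of other cell types.

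Of 33 tested neuronal genes and regulators, 5 rose and 7 fell past both thresholds (36.4%, against 8.11% of all tested genes). The list thus moved both ways, with a median log2 fold change of −0.08. Of these 12 genes, 4 averaged under 1 CPM. KIF1A, a kinesin that carries synaptic vesicle precursors, fell from 217 ± 15.5 to 61.8 ± 6.29 CPM (SD, n = 3; log2 fold change −1.81, edgeR's adjusted p = 6.54e-10), and CRMP1, of axon guidance, from 25.4 ± 0.712 to 6.86 ± 1.16 CPM (−1.89, adjusted p = 1.1e-08). STMN3, a microtubule regulator, and MYT1, a zinc finger factor, fell by 1.25 and 1.36 on the log2 scale (adjusted p = 9.99e-08 and 2.5e-06). SYT1, the calcium sensor of synaptic vesicles, rose from 8.26 ± 0.390 to 19.9 ± 0.368 CPM (log2 fold change 1.27, adjusted p = 4.96e-08), and ISL1, a homeobox factor of motor and sensory neurons, rose by 1.44 on the log2 scale (adjusted p = 8.65e-07).

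Of 23 tested neural progenitor genes, the set that NES represents among the filaments, 2 rose and 1 fell past both thresholds. Their share was 13.0%, against 8.11% of all tested genes, and the list's median log2 fold change was −0.10. SOX2, the progenitor transcription factor, went from 8.82 ± 0.650 CPM in WT to 18.5 ± 1.42 CPM (SD, n = 3; log2 fold change 1.07, edgeR's adjusted p = 8.25e-07), and ZIC2, a zinc finger factor, from 45.4 ± 3.22 to 103 ± 23.8 CPM (1.19, adjusted p = 2.76e-06, with a log2 fold change of 0.98 without the third MUL1(-/-)-labelled library). PROM1, the CD133 gene, went from 4.86 ± 0.897 to 0.435 ± 0.176 CPM (−3.48, adjusted p = 2.72e-08).

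**Figure D4:**
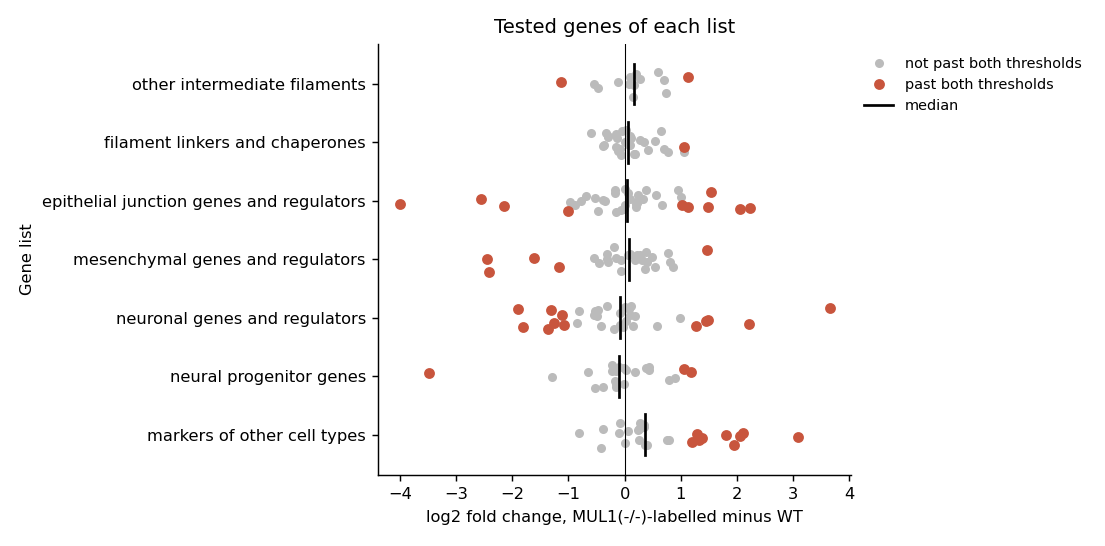
Log2 fold change, MUL1(-/-)-labelled minus WT, of the tested genes of each list, 1 point per gene, with genes past both thresholds in red and a bar at the list's median. The medians lie between −0.10 and 0.36, and the genes past both thresholds lie on both sides of 0 in 5 of the 7 lists.

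Markers of other cell types, such as blood, endothelial, fibroblast and differentiated kidney cells, also moved with genotype. Of 26 tested markers, 9 rose past both thresholds (34.6%, against 8.11% of all tested genes) and the other 17 did not pass. The list's median log2 fold change was 0.36. Of the 9, 6 were under 1 CPM. The others were fibroblast matrix genes: LUM, at 1.11 ± 0.077 CPM in WT and 9.45 ± 2.59 CPM in the MUL1(-/-)-labelled libraries (SD, n = 3; log2 fold change 3.09, edgeR's adjusted p = 6.8e-09), COL3A1, at 5.13 ± 1.15 and 13.3 ± 4.03 CPM (1.37, adjusted p = 3.68e-05), and DCN, at 1.19 ± 0.041 and 2.92 ± 0.439 CPM (1.30, adjusted p = 7.14e-06). The summed level of the list was 119 to 141 CPM in WT and 133 to 138 CPM in the MUL1(-/-)-labelled libraries, and CD3E and UMOD were at 0 counts in all WT libraries. Their part in the levels of the filament genes was not tested.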

How the data were processed

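Per library, the authors deposited unnormalized counts of reads in exon bins. The submitters' processing notes name Trimmomatic 0.36, STAR 2.5.2b and GRCh38, and the counting program is not given in the sources used here. Each table lists 597973 bins, and a read that spans several bins adds to each of them. Bins were summed per gene, 2031 joined identifiers were divided by GENCODE 29 exons, and 4.37% of counts fell in bins given to no gene. Over 11 pairs of opposite-strand bins with the same bases the median count ratio was 1.0, so strand was not separated.

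The gene sums then entered edgeR's quasi-likelihood test (edgeR 4.0.16, R 4.3.3, TMM, filterByExpr, Benjamini-Hochberg over all 25125 tested genes). DESeq2 1.42.0 and limma 3.58.1 gave alternatives, and summaries were computed in Python 3.11.15. The scripts were tested on simulated data. In all 17 alternatives were planned and 3 were added after seeing the data: coding exon bins for levels per kilobase, KRT8 split at KRT18, and the 4 last bins of KRT10 apart. Between libraries of 1 genotype the chi-square of the counts was 2.95 to 10.8 times its degrees of freedom, more than sampling noise, and each counted as a separate sample.

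The members and the 7 gene lists were chosen with earlier results of these data known. Named were all members, MUL1, the 3 genes most like KRT19, every tested other intermediate filament gene averaging 1 CPM or more and, from each list, genes past both thresholds with such an average, up to 4 in each direction with the smallest p. Marker genes under that average, or not past the thresholds, are given only as checks. Protein sequences were not used here.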

Additional observations from a re-analysis of the deposited data

How the results depend on the processing

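With the adjusted p alone in place of both thresholds the numbers were 9422 of all tested genes, 6 members, 6 other intermediate filament genes, 9 linkers and chaperones, 20 epithelial, 16 mesenchymal, 21 neuronal, 10 progenitor and 12 other-cell-type genes. With at least 1 CPM in 3 libraries they were 777 of all genes, 6 epithelial, 2 mesenchymal and 3 other-cell-type genes, since fewer genes were tested. With no filter 4 other intermediate filament genes passed. With the most counted bin of each gene 3 mesenchymal, 5 progenitor and 4 other-cell-type genes passed, and with DESeq2 3 mesenchymal genes, and the cause was not tested. Leaving out 1 library in turn gave 1 to 2 other intermediate filament genes, 3 to 5 mesenchymal genes and 1950 to 2352 of all tested genes.

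Same-numbered libraries showed little common deviation (r between −0.08 and 0.16). With 3 pairs and no batch given, this cannot show that they share only a number. With the replicate number as a block 1955 of all tested genes, 3 members and 3 mesenchymal genes were past both thresholds. Shallow genes limit the rest: KRT7, at 8 to 277 counts, was removed by the minimum of 1 CPM, and strand, clone and culture were not separated by these data.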
